A study of Homo sapiens with 15 samples.

Results

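Interferon-stimulated genes are the genes that a cell turns on after interferon binds its receptors, and 44 of them (45 listed symbols, since DDX58 and RIGI name the same gene) were followed here in xenograft tumors that carried forms of modulator of apoptosis 1 (MOAP-1). The members are a set list of names and were not chosen by their values. Array probes were assigned to a gene through their RefSeq accession. By this rule 43 of the 44 genes had a probe, 53 probes in all, out of 18016 named genes that could be tested. IFI27 had no matched probe and was not analysed here. The list was set up with earlier results of the same arrays in view, as were the comparisons below.

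The tumors were grown from HCT116, a human colon cancer cell line, as subcutaneous xenografts in athymic nude mice, which lack mature T cells. The cells were transfected transiently, as pools and not clones, with 1 of 5 plasmids: empty vector, Myc-tagged wild type MOAP-1, a Myc-tagged MOAP-1 mutant with 1 lysine changed to arginine (K264R or K278R, named by the position), or HA-tagged RASSF1A, a tumor suppressor that binds MOAP-1. HCT116 cells keep their own MOAP-1 gene, so the vector tumors are not free of it. The 5 constructs were measured in 3 tumors each on 15 one-color arrays. The labels call these replicates and the methods call them independent tumors, but neither says whether 2 tumors shared a mouse, so p values cover the spread between these tumors only.

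Signal on these arrays is an intensity. All levels below are log2 of the processed signal minus the 75th percentile of that array on the same scale, so 0 is the 75th percentile and 1 unit is a doubling. A probe was called where limma gave an adjusted p under 0.05 over all 30585 probes tested and the change was at least 1.5-fold, and a gene was called where any of its probes was. The arrays had a 75th percentile of 495.8 to 1400 intensity units, and 85.1% to 93.1% of their spots were well above background. This percentile did not overlap between the K264R arrays (1171 to 1400) and the vector arrays (630 to 768). Its part in the changes below was not tested. The probe of MOAP1 read 0.55 (SE 0.14) higher in K264R, 0.87 higher in wild type MOAP-1 and 0.74 higher in K278R than in vector, with limma adjusted p of 0.00939, 0.000842 and 0.00504. The probe of RASSF1 read 0.12 lower in the tumors labelled RASSF1A than in vector (adjusted p = 0.671), and whether it lies within the transfected insert is not given in the sources used here. All 11 probes of 8 colon epithelium genes were well above background on every array. Among 8 stromal fibroblast genes, 5 of 9 probes were. All 3 K264R arrays shared a slide that held nothing else, while the vector arrays shared a slide with RASSF1A tumor 3. No wild type MOAP-1 or K278R array was on the vector slide either, and the K278R slide also held MOAP-1 tumor 2. Slide and construct therefore cannot be told apart for any MOAP-1 form against vector, or for K264R against any other construct. In pieces of bulk tumor, fewer cells that express a gene and less RNA per cell cannot be told apart either.

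Interferons signal through receptors on the cell surface that activate the kinases JAK1 and TYK2. These kinases phosphorylate STAT proteins, and a complex of STAT factors with IRF9 then enters the nucleus and binds a short promoter element, the interferon-stimulated response element. The genes it turns on make the antiviral state: sensors of viral RNA, enzymes that degrade or modify RNA, the ubiquitin-like protein ISG15 and its conjugation enzymes, and proteins that block viral entry or release. Many of these genes have a steady level in epithelial cancer lines with no infection.

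The promoters show what the listed genes share beyond their names. RefSeq promoter windows (GRCh38.p14, 250 bases before to 50 after the annotated start) were found for 37 of the 44 genes, the exceptions being USP18, IFIT2, OAS2, OASL, MX2, IRF7 and TRIM22. The core of the response element, written GAAANNGAAA and searched on both strands (TTTCNNTTTC on the other), was present in 24 of the 37 windows, or 64.9%, against 3.65% of all 27305 windows of that length. Matches may overlap each other. A second element, TTCNNNGAA, which STAT dimers bind, was present in 10 of 37 (27%) against 7.88% of all windows, and it reads the same on both strands. Among genes with a window, the core was found in 7 of the 12 that were higher in K264R than in vector and in 16 of the 24 others that had a probe. The windows below were chosen to show 2 classical members whose signal changed little (IFIT1 and ISG15), 2 that were higher in K264R and hold the element (IFIT3 and DDX60), and HERC6, which had the largest change and no match. Each is printed in its gene's own direction, 5′ to 3′, with matches of the core in capitals.
IFIT1: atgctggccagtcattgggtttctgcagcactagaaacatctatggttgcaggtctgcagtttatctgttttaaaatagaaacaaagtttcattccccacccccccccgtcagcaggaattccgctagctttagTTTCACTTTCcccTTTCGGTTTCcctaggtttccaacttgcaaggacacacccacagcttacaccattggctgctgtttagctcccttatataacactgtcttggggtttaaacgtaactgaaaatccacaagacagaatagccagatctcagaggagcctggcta
ISG15: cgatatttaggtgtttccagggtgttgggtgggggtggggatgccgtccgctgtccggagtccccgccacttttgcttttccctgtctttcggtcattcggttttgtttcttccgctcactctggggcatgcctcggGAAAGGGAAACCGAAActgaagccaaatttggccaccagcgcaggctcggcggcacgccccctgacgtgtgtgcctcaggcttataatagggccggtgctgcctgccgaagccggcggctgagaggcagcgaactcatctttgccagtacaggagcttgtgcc
IFIT3: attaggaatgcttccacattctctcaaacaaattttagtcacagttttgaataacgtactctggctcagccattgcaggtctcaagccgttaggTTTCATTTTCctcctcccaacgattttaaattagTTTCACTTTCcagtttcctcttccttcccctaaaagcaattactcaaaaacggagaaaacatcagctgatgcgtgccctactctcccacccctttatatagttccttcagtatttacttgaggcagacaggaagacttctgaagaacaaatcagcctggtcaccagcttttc
DDX60: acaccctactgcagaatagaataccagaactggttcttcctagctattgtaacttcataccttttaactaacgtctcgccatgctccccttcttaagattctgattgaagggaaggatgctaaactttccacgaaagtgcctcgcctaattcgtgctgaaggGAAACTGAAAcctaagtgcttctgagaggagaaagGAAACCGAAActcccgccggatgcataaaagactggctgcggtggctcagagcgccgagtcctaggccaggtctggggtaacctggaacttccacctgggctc
HERC6: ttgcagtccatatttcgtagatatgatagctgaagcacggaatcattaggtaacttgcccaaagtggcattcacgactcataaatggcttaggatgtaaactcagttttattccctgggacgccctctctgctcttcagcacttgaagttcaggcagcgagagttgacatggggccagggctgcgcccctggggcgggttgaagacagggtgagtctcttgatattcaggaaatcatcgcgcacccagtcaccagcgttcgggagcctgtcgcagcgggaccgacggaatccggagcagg

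The windows are chr10:89392373-89392672 on the plus strand for IFIT1, chr1:1013247-1013546 on the plus strand for ISG15, chr10:89327747-89328046 on the plus strand for IFIT3, chr4:168318703-168319002 on the minus strand for DDX60 and chr4:88378602-88378901 on the plus strand for HERC6. IFIT1, ISG15, IFIT3 and DDX60 each hold 2 matches, and in ISG15 the matches overlap. A match is a run of letters, not a measured binding site.

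In K264R tumors 15 of the 43 genes (34.9%) were called against vector, where 23.6% of all named genes were. Of these, 14 had a probe that was higher (32.6%, background 13.2%) and 2 a probe that was lower (4.65%, background 10.8%), and HERC6 is in both counts because its 2 probes moved in opposite directions. The largest rise was at HERC6, an E3-type ligase relative of the ISG15 ligase, at 7.08-fold, followed by the RNA sensor RIGI at 2.72-fold, IFIT3 at 2.54-fold and OAS1 at 2.45-fold. The genes most used as readouts of an interferon response did not pass the test: ISG15 was 0.24 (SE 0.16) higher, IFIT1 0.10 (SE 0.13) higher and IFI6 0.13 (SE 0.12) higher on the log2 scale, and MX1 differed by -0.03 (SE 0.13). Over the 53 probes the median change was 0.28, beside -0.05 for all probes tested. By probe, 25 read higher in all 3 K264R tumors than in any vector tumor and 7 read lower in all 3, while 52.8% of all probes had groups that did not overlap, so separated groups were common on these arrays. Without vector tumor 2 the count fell to 9 genes, and with normexp background correction it fell to 2.

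**Figure D1:**
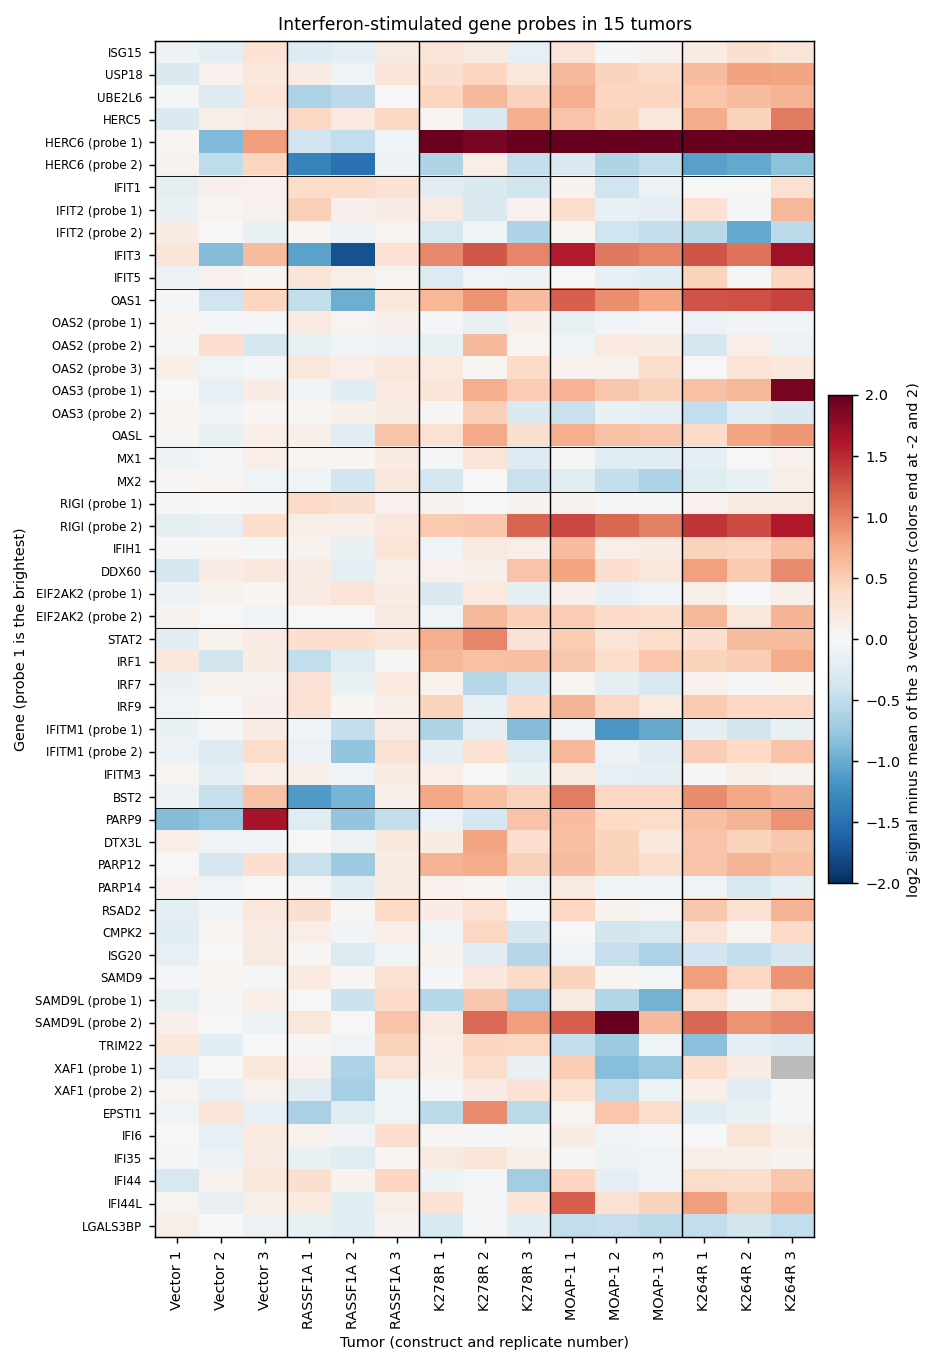
Each row is 1 of the 53 probes of 43 interferon-stimulated genes and each column 1 tumor. Color is the log2 signal minus the mean of the 3 vector tumors, red for higher and blue for lower, with thin lines between functional groups and gray for the 1 missing value (XAF1 in K264R tumor 3). Red in the K264R, MOAP-1 and K278R columns gathers in a few rows such as HERC6 (probe 1), IFIT3, OAS1 and RIGI (probe 2), while ISG15, IFIT1, MX1 and IFI6 stay pale.

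ISG15 is attached to other proteins by a chain of enzymes, and 4 of its 5 listed genes were called in K264R against vector. HERC6 (probe A_23_P250358) read -4.52, -5.44 and -3.71 in the vector tumors, -4.94, -5.05 and -4.65 in those labelled RASSF1A, -2.60, -2.66 and -1.66 in K278R, -1.71, -1.94 and -2.03 in wild type MOAP-1 and -1.79, -1.72 and -1.70 in K264R. Vector and RASSF1A lay at the bottom without overlap with the MOAP-1 forms, and K264R was the most even of the 5 groups. The K264R change was 2.82 (SE 0.35, limma adjusted p = 0.000128), against 2.67 in wild type MOAP-1, 2.25 in K278R and -0.32 in RASSF1A (adjusted p = 0.000263, 0.00233 and not called). Its other probe, A_33_P3315779, went the other way, at -0.97 (SE 0.33, adjusted p = 0.0343) in K264R and -0.97 (SE 0.33, not called) in the tumors labelled RASSF1A. USP18, the protease that removes ISG15 and dampens receptor signaling, read 0.09, 0.46 and 0.60 in the vector tumors, 0.54, 0.32 and 0.64 in those labelled RASSF1A, 0.69, 0.81 and 0.61 in K278R, 1.03, 0.82 and 0.77 in wild type MOAP-1 and 0.99, 1.18 and 1.17 in K264R. All 3 K264R tumors were above every other tumor but MOAP-1 tumor 1, and the change against vector was 0.73 (SE 0.14, adjusted p = 0.00132). UBE2L6, the conjugating enzyme of the chain, read -0.46, -0.70 and -0.16 in the vector tumors, -1.07, -0.95 and -0.44 in those labelled RASSF1A, 0.00, 0.21 and 0.03 in K278R, 0.30, -0.01 and 0.00 in wild type MOAP-1 and 0.12, 0.18 and 0.24 in K264R. The K264R change was 0.62 (SE 0.17, adjusted p = 0.0125), and the vector and RASSF1A values were below those of all other tumors. HERC5, the main ISG15 ligase in human cells, read -1.44, -1.04 and -1.0 in the vector tumors, -0.75, -0.96 and -0.75 in those labelled RASSF1A, -1.12, -1.46 and -0.43 in K278R, -0.58, -0.72 and -0.94 in wild type MOAP-1 and -0.41, -0.71 and -0.12 in K264R. K264R was 0.74 (SE 0.23, adjusted p = 0.0223) above vector with groups that did not overlap, but HERC5 was not called in any other comparison. Leaving out 1 tumor ended the call of UBE2L6 (vector tumor 2, adjusted p = 0.0612), of HERC5 (K264R tumor 1 or 3 or vector tumor 1, adjusted p up to 0.0974) and of the dimmer HERC6 probe (any but vector tumor 2, adjusted p up to 0.118). ISG15 itself was among the brightest probes, from 5.00 to 5.57 over all 15 tumors, and all constructs overlapped in level with vector.

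The IFIT proteins bind viral RNA that lacks the cell's own cap marks. IFIT3 was the 1 member of the family that rose. IFIT3 read -0.98, -2.09 and -0.58 in the vector tumors, -2.28, -2.97 and -0.93 in those labelled RASSF1A, -0.26, 0.03 and -0.24 in K278R, 0.37, -0.17 and -0.23 in wild type MOAP-1 and 0.04, -0.13 and 0.47 in K264R. Vector and RASSF1A tumors were spread over more than 1 unit, and the K264R change was 1.35 with an SE of 0.45 (adjusted p = 0.0324), a call that was lost without K264R tumor 1 or 3 or vector tumor 1 or 2 (adjusted p up to 0.144). The dimmer IFIT2 probe, A_24_P304071, read -0.38, -0.54 and -0.68 in the vector tumors, -0.49, -0.64 and -0.47 in those labelled RASSF1A, -0.86, -0.62 and -1.15 in K278R, -0.49, -0.93 and -1.01 in wild type MOAP-1 and -1.09, -1.55 and -1.05 in K264R. It was 0.70 lower in K264R than in vector (SE 0.18, adjusted p = 0.00807) and fell under the fold threshold without K264R tumor 2, at -0.54, whereas the brighter IFIT2 probe read 0.31 higher (SE 0.19, adjusted p = 0.241). IFIT1 and IFIT5 read 0.10 (95% interval -0.18 to 0.38) and 0.28 (-0.01 to 0.56) higher and were not called.

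The OAS enzymes make 2-5A, the second messenger that switches on RNase L. OAS1 read -1.0, -1.37 and -0.56 in the vector tumors, -1.47, -1.96 and -0.77 in those labelled RASSF1A, -0.31, -0.08 and -0.37 in K278R, 0.22, -0.04 and -0.20 in wild type MOAP-1 and 0.28, 0.29 and 0.38 in K264R. K264R was the highest group and did not overlap with any other, and the change against vector was 1.29 (SE 0.26, adjusted p = 0.00194). OAS3, the long form of the family, at the brighter probe read -1.07, -1.24 and -0.93 in the vector tumors, -1.15, -1.31 and -0.88 in those labelled RASSF1A, -0.83, -0.36 and -0.58 in K278R, -0.38, -0.54 and -0.61 in wild type MOAP-1 and -0.49, -0.41 and 0.82 in K264R. K264R tumor 3 was the highest of all 15 tumors, and the change was 1.06 (SE 0.27, adjusted p = 0.00935), while the dim OAS3 probe read -0.33 (SE 0.16, adjusted p = 0.123). OASL, an OAS relative that activates RIGI, read 0.17, -0.01 and 0.28 in the vector tumors, 0.25, -0.08 and 0.72 in those labelled RASSF1A, 0.45, 0.91 and 0.47 in K278R, 0.88, 0.74 and 0.70 in wild type MOAP-1 and 0.52, 0.94 and 1.01 in K264R. It was 0.68 (SE 0.19, adjusted p = 0.0163) above vector, a call lost without K264R tumor 2 or 3 or vector tumor 2 (adjusted p up to 0.0700). The 3 probes of OAS2 changed by -0.11 to 0.16 in K264R and none was called.

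RIGI and IFIH1 detect viral double-stranded RNA in the cytosol, DDX60 is a helicase of the same group, and EIF2AK2 (PKR) stops translation when it binds such RNA. RIGI at its dimmer probe, A_33_P3418170, read -1.70, -1.67 and -1.16 in the vector tumors, -1.39, -1.40 and -1.28 in those labelled RASSF1A, -0.98, -0.98 and -0.35 in K278R, -0.17, -0.35 and -0.50 in wild type MOAP-1 and -0.09, -0.20 and 0.09 in K264R. The MOAP-1 forms lay above every vector and RASSF1A tumor, in the order K264R, wild type and K278R, with changes of 1.44 (SE 0.18), 1.17 and 0.74 against vector (adjusted p = 0.000138, 0.000605 and 0.0142). The brighter RIGI probe, A_33_P3372910, showed none of this: it read 1.22 to 1.65 over all 15 tumors and differed by 0.14 (SE 0.09, adjusted p = 0.238) between K264R and vector. DDX60 read -0.58, -0.09 and -0.03 in the vector tumors, -0.07, -0.43 and -0.11 in those labelled RASSF1A, -0.15, -0.14 and 0.33 in K278R, 0.56, 0.10 and -0.01 in wild type MOAP-1 and 0.58, 0.29 and 0.72 in K264R. K264R was 0.76 (SE 0.20, adjusted p = 0.00987) above vector. IFIH1 read 0.50 (SE 0.14, adjusted p = 0.0146) higher, which passed the p threshold but not the fold threshold, and so did the dimmer EIF2AK2 probe at 0.52 (SE 0.17, adjusted p = 0.0279), while the brighter EIF2AK2 probe was at 0.07 (SE 0.12).

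**Figure D2:**
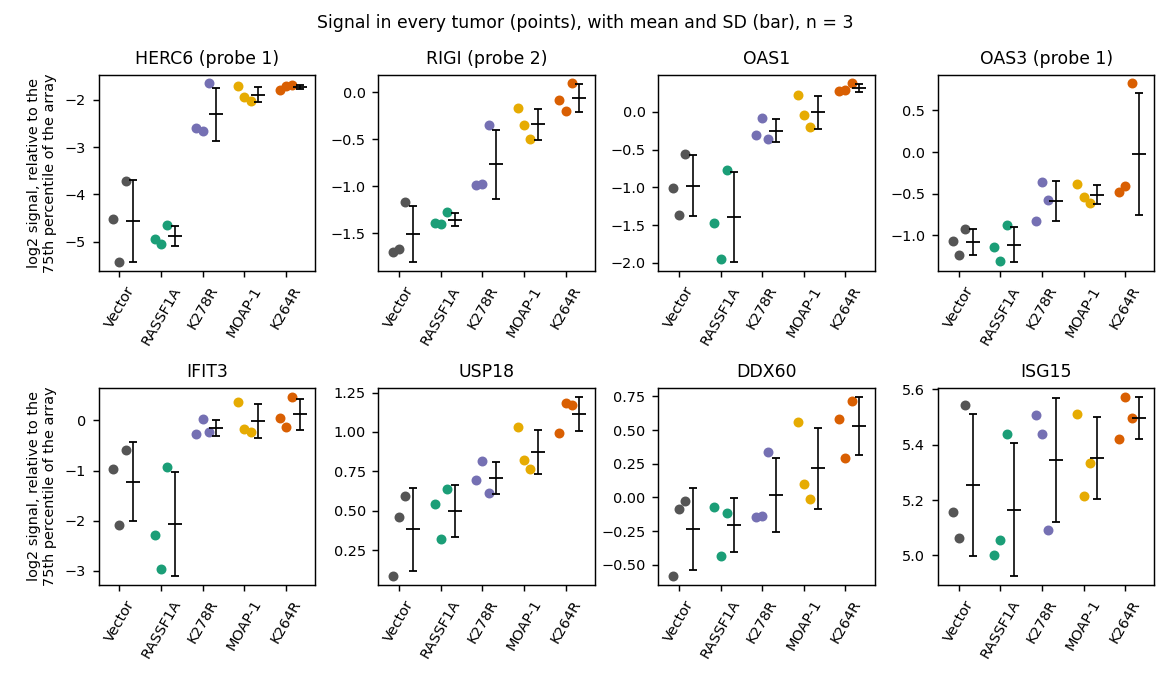
Points are single tumors and bars the mean and SD of 3, on the log2 scale relative to the 75th percentile of the array, for 8 probes; each panel has its own vertical axis. The MOAP-1 forms lie above vector and RASSF1A at HERC6 (probe 1) and RIGI (probe 2), K264R stands clear of every other group at OAS1, and ISG15 overlaps across all 5 groups.

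Among the transcription factors that carry the signal, none was called in K264R against vector, although all 4 read higher and STAT2, IRF1 and IRF9 passed adjusted p alone (0.0221, 0.0158 and 0.0415). STAT2, the partner of IRF9, read 1.26, 1.54 and 1.64 in the vector tumors, 1.81, 1.81 and 1.73 in those labelled RASSF1A, 2.20, 2.46 and 1.76 in K278R, 1.98, 1.73 and 1.84 in wild type MOAP-1 and 1.81, 2.10 and 2.10 in K264R. It was called in K278R, at 0.67 above vector (SE 0.16, adjusted p = 0.0136), but not without K278R tumor 2 or vector tumor 1 (adjusted p up to 0.0507). IRF1 read -2.53, -3.11 and -2.59 in the vector tumors, -3.23, -2.99 and -2.72 in those labelled RASSF1A, -2.08, -2.15 and -2.13 in K278R, -2.20, -2.38 and -2.18 in wild type MOAP-1 and -2.30, -2.25 and -2.0 in K264R. It was 0.62 above vector in K278R (SE 0.16, adjusted p = 0.0178, but 0.0812 without vector tumor 2) and 0.80 above the tumors labelled RASSF1A in K264R (SE 0.16, adjusted p = 0.00159). IRF7, which amplifies the response, differed by 0.04 (95% interval -0.31 to 0.38) between K264R and vector.

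None of the membrane-bound restriction factors was called in K264R against vector. IFITM1 at its brighter probe, A_23_P72737, read 3.84, 3.93 and 4.14 in the vector tumors, 3.88, 3.50 and 4.14 in those labelled RASSF1A, 3.36, 3.80 and 3.11 in K278R, 3.90, 2.81 and 2.95 in wild type MOAP-1 and 3.79, 3.61 and 3.82 in K264R. It was called lower in wild type MOAP-1 only, by -0.75 (SE 0.26, adjusted p = 0.0430), although MOAP-1 tumor 1 lay within the vector range, and only the fit without that tumor kept the call (adjusted p up to 0.170 without another). The other IFITM1 probe was not called in any of the 7 comparisons, although it read 0.49 higher in K264R than in vector (95% interval -0.12 to 1.09), and IFITM3 differed by 0.06 (SE 0.13) between K264R and vector. BST2, or tetherin, which holds budding virus on the cell surface, read 2.24, 1.90 and 2.95 in the vector tumors, 1.24, 1.44 and 2.46 in those labelled RASSF1A, 3.14, 2.97 and 2.83 in K278R, 3.38, 2.78 and 2.77 in wild type MOAP-1 and 3.31, 3.14 and 3.05 in K264R. K264R was 1.46 above the tumors labelled RASSF1A (SE 0.31, adjusted p = 0.00220), where tumors 1 and 2 were the lowest of all 15, and 0.80 (95% interval 0.14 to 1.46, adjusted p = 0.0572) above vector, where all 3 K264R tumors were above every vector tumor.

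PARP9 and DTX3L form a complex that modifies histones and supports STAT signaling, and PARP12 and PARP14 are further ADP-ribosyltransferases. PARP12 read 0.18, -0.14 and 0.53 in the vector tumors, -0.26, -0.54 and 0.34 in those labelled RASSF1A, 0.86, 0.93 and 0.66 in K278R, 0.80, 0.65 and 0.54 in wild type MOAP-1 and 0.75, 0.86 and 0.79 in K264R. The call against vector passed in K264R at 0.61 (SE 0.20, adjusted p = 0.0310) and in K278R at 0.63 (SE 0.20, adjusted p = 0.0420). Each of these calls was lost without any 1 tumor except vector tumor 3 (adjusted p up to 0.134 and 0.175). PARP9 read -1.82, -1.74 and 0.68 in the vector tumors and -0.36, -0.28 and -0.06 in K264R, so that vector tumor 3 was above every other tumor, and its change of 0.73 had an SE of 0.49. DTX3L was 0.52 higher (adjusted p = 0.0196), below the fold threshold, and PARP14 was 0.20 lower and not called.

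Of the 13 remaining effectors with a probe, 3 were called. SAMD9, which restricts poxvirus replication, read -1.75, -1.66 and -1.75 in the vector tumors, -1.52, -1.69 and -1.42 in those labelled RASSF1A, -1.76, -1.51 and -1.33 in K278R, -1.27, -1.68 and -1.77 in wild type MOAP-1 and -0.89, -1.31 and -0.82 in K264R. K264R was 0.71 above vector (SE 0.16, adjusted p = 0.00428) and all 3 K264R tumors were above every vector tumor. Its neighbor and paralog SAMD9L, at the dimmer probe A_33_P3264846, read -5.40, -5.50 and -5.61 in the vector tumors, -5.27, -5.51 and -4.93 in those labelled RASSF1A, -5.32, -4.38 and -4.67 in K278R, -4.31, -3.45 and -4.85 in wild type MOAP-1 and -4.35, -4.60 and -4.52 in K264R. The changes against vector were 1.01 in K264R and 1.30 in wild type MOAP-1 (SE 0.30, adjusted p = 0.0194 and 0.00623), but the brighter SAMD9L probe read 0.21 (SE 0.32), and with normexp correction the dimmer probe changed sign. IFI44L read -1.23, -1.45 and -1.16 in the vector tumors, -1.08, -1.49 and -1.16 in those labelled RASSF1A, -0.98, -1.31 and -1.01 in K278R, -0.08, -0.98 and -0.84 in wild type MOAP-1 and -0.45, -0.80 and -0.57 in K264R. It was 0.67 higher in K264R and 0.64 higher in wild type MOAP-1 than in vector (SE 0.20, adjusted p = 0.0220 and 0.0300). In K264R the SAMD9L call was lost without K264R tumor 1 or vector tumor 2 or 3 (adjusted p up to 0.0660) and the IFI44L call without K264R tumor 1 or 3 or vector tumor 2 (up to 0.0823), and in wild type MOAP-1 the IFI44L call without MOAP-1 tumor 1 or vector tumor 1 or 2 (up to 0.108). LGALS3BP, a secreted glycoprotein that binds galectins, was 0.45 lower in K264R (SE 0.11, adjusted p = 0.00515), below the fold threshold. RSAD2 (viperin) was 0.51 higher and also below it. The others, CMPK2, ISG20, TRIM22, XAF1, EPSTI1, IFI6, IFI35 and IFI44, changed by -0.42 to 0.41 and did not pass.

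**Figure D3:**
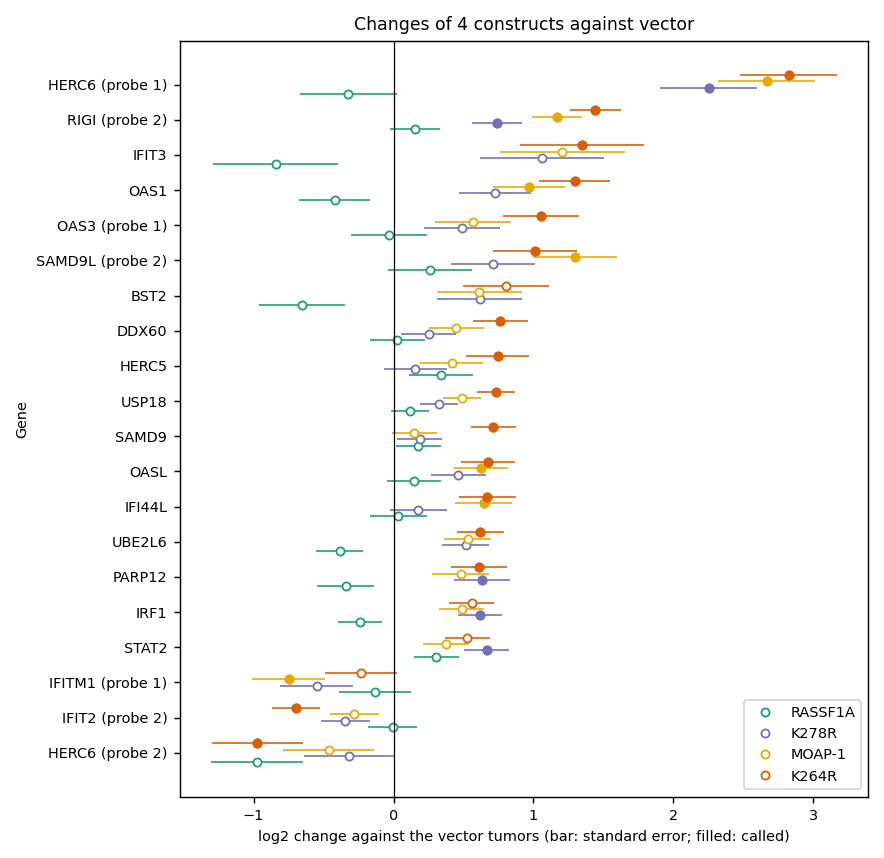
Log2 change against the 3 vector tumors with its standard error for the 20 probes called in at least 1 of 7 comparisons, by construct; filled points passed adjusted p under 0.05 and 1.5-fold. K264R points lie farthest to the right at most genes, the tumors labelled RASSF1A have no filled point, and in K264R 3 probes lie to the left of 0. All 4 constructs share the same vector tumors.

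For 9 genes the array held more than 1 probe, and the probes often disagreed. In K264R against vector, 5 of the 9 had a called probe, HERC6 alone had every probe called, and in 6 the probes had opposite signs. The same was seen in genes outside the list. KRT8, a keratin of simple epithelium, read 3.99 to 4.58 over all 15 tumors at its brighter probe, which was 0.35 lower in K264R than in vector. Its dimmer probe read 0.60, 0.67 and 0.45 in K264R, -0.37, -0.68 and -0.16 in vector and -1.84, -1.54 and -0.35 in the tumors labelled RASSF1A, and was called higher in K264R at 0.98 (SE 0.28, adjusted p = 0.0168). The gap between the KRT8 probes, dimmer minus brighter, ran from -3.60 to -3.47 in K264R, -3.68 to -3.46 in wild type MOAP-1, -4.00 to -3.83 in K278R, -5.24 to -4.41 in vector and -6.38 to -4.87 in the tumors labelled RASSF1A. KRT18, the partner of KRT8, had a gap of -2.87 to -2.71 in K264R, -3.97 to -3.27 in vector and -4.71 to -3.52 in the tumors labelled RASSF1A. Within vector the gaps were widest in tumor 2 and narrowest in tumor 3, which were also the lowest and the highest vector tumor at HERC6 (probe A_23_P250358), IFIT3, OAS1, BST2 and PARP12, genes named here after their values were seen. The methods accepted RNA above a set integrity number without giving it per tumor, and the part of RNA quality, slide or probe position in these changes was not tested.

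**Figure D4:**
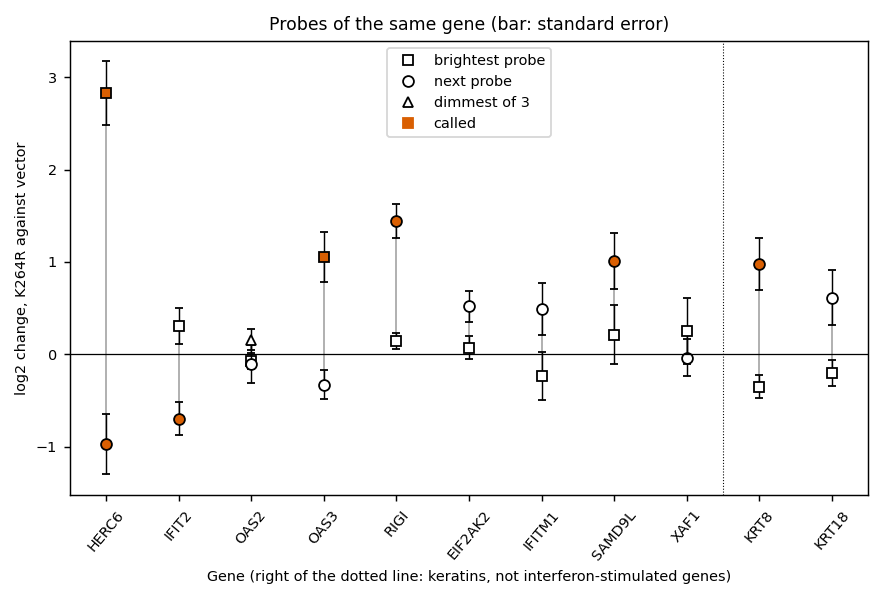
Each symbol is 1 probe, with its log2 change in K264R against vector and the standard error, for the 9 interferon-stimulated genes with more than 1 probe and, right of the dotted line, 2 keratins. Filled symbols were called. Probes of HERC6, RIGI and OAS3 lie far apart, and so do those of KRT8.

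Wild type MOAP-1 against vector called 7 of the 43 genes (16.3%), where 19.9% of all named genes were called. HERC6, OAS1, OASL, RIGI, SAMD9L and IFI44L were higher and IFITM1 lower. OAS1 was 0.97 above vector (SE 0.26, adjusted p = 0.0125) and OASL 0.63 (SE 0.19, adjusted p = 0.0270). The OAS1 call was lost without vector tumor 2 (adjusted p = 0.0628) and the OASL call without any 1 tumor except vector tumor 3 (up to 0.0983). K278R against vector called 5 genes (11.6%), where 13.2% of all named genes were, and all 5, HERC6, RIGI, STAT2, IRF1 and PARP12, were higher. The RIGI call in K278R was lost without K278R tumor 3 or vector tumor 1 or 2 (adjusted p up to 0.0662). Without vector tumor 2, 3 genes were called in wild type MOAP-1 and 2 in K278R, and without vector tumor 3, 12 and 8. In both comparisons the share of the listed genes was below the background, and both use the vector tumors that K264R was set against. The tumors labelled RASSF1A had no called gene of the 43 against vector, as had all named genes (0%). By limma, 4 of the 53 probes (7.55%) passed an unadjusted p under 0.05 there, beside 12.1% of all probes. They were the dimmer HERC6 probe, the brighter RIGI probe, IFIT1 and UBE2L6. The t test of the study's methods called 0. Without tumor 3 of that group 3 genes were called, all lower. On the vector slide itself, RASSF1A tumor 3 minus the vector mean had a median of 0.17 over the 53 probes, from -0.47 to 0.57.

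K264R against wild type MOAP-1 compared constructs that differ by a lysine change, but slide differed as well and cannot be told apart from it. The MOAP1 probe differed by -0.31 between these groups (SE 0.14, limma adjusted p = 0.454). No listed gene was called (0% of all named genes), and limma gave 5 of 53 probes an unadjusted p under 0.05, 9.43% beside 10.9% of all probes. They were SAMD9 at 0.56 (95% interval 0.22 to 0.91), IFIT5 at 0.41 (0.13 to 0.69), CMPK2 at 0.46 (0.08 to 0.84), MX2 at 0.36 (0.00 to 0.71) and the dimmer IFIT2 probe at -0.42 (-0.80 to -0.04), and the smallest adjusted p was 0.347. With array weights 7 genes were called, while the t test of the methods called 0. The K264R mean was above the wild type mean at 43 of 53 probes, with a median difference of 0.14 beside -0.07 for all probes. HERC6 (probe A_23_P250358) differed by only 0.16 between these groups, and the 95% intervals had a median half-width of 0.37 and a widest of 1.07 over the 53 probes, so that for some of them, such as SAMD9, the interval reached past 1.5-fold.

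K264R against K278R compared the lysine mutants with each other, and again no listed gene was called, where 0.677% of all named genes were. By limma 15 of 53 probes had an unadjusted p under 0.05, or 28.3%, against 27.9% of all probes. The lowest adjusted p was that of RIGI (probe A_33_P3418170), at 0.70 higher in K264R (95% interval 0.31 to 1.09, adjusted p = 0.0737). IFI44 was 0.68 higher (0.23 to 1.12) and TRIM22, a ubiquitin ligase, 0.75 lower (-1.20 to -0.30), neither past the adjusted threshold. Array weights called 10 genes and the methods' t test without adjustment called 3.

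K264R against the tumors labelled RASSF1A called 13 of 43 genes (30.2%), where 28.3% of all named genes were called. USP18, UBE2L6, HERC6, IFIT3, OAS1, OAS3, RIGI, DDX60, IRF1, BST2, PARP12 and IFI44L were higher and IFIT2 was lower at its dimmer probe. HERC6 (probe A_23_P250358) was 8.86-fold higher, IFIT3 4.56-fold (log2 2.19, SE 0.45, adjusted p = 0.00181), OAS1 3.28-fold (adjusted p = 0.000217) and UBE2L6 2.0-fold (adjusted p = 0.000504). The USP18 call was lost on the fold threshold without K264R tumor 2 or RASSF1A tumor 2, that of IFIT2 without K264R tumor 2, and that of IFI44L without K264R tumor 1 or 3 or RASSF1A tumor 2 (adjusted p up to 0.101). At IFIT3, OAS1 and BST2 tumor 3 of the RASSF1A group, the 1 that shared the vector slide, was higher than tumors 1 and 2. Slide and scan day differed between those tumors and their part in the values was not tested.

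Across the 5 constructs K264R had the highest mean at 28 of 53 probes and the lowest at 5. Vector was lowest at 17 and the tumors labelled RASSF1A at 16. At ISG15, UBE2L6, HERC6 (probe A_23_P250358), IFIT3, OAS1, OAS3 (brighter probe) and PARP9 the means fell in the order K264R, wild type MOAP-1, K278R, vector, RASSF1A, but the step from K264R to wild type MOAP-1 passed the test at none of them.

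Upstream of these genes, 3 of 6 receptor genes (50%) were called higher in K264R against vector and none lower, where 13.2% of all named genes were called higher and 23.6% either way. IL10RB, a shared chain of the type III interferon receptor, was 0.89 higher (SE 0.19, adjusted p = 0.00302), IFNGR2, a chain of the interferon gamma receptor, 0.66 higher, and IFNLR1, the other type III chain, 0.60 higher at 1 dim probe, while its other probes read -0.17 and -0.08 and were not called. Of 8 kinases and factors 3 (37.5%) were higher: JAK1 at 1.95 (SE 0.32, adjusted p = 0.000579), TYK2 at 0.83 and STAT3 at both of its probes. JAK1 read -2.21, -2.60 and -2.23 in K264R and -4.17, -4.33 and -4.41 in vector, with no overlap. The rise was not particular to K264R: JAK1, TYK2 and STAT3 were also called higher in wild type MOAP-1 and K278R, with JAK1 at 1.71 and 1.21. Receptor genes were called higher at 4 of 6 in wild type MOAP-1 and 2 of 6 in K278R. Of all named genes 19.9% and 13.2% were called either way there. None of 7 inhibitor genes was called. An unadjusted limma p under 0.05 was found at 3 of them, and at 45% of all probes in this comparison. The interferon genes themselves were dim: 5 of their 17 probes were above background on every array. Of 11 genes tested 3 were called (27.3%), IFNE and IFNL3 higher and IFNA7 lower in K264R. None of these 3 had a probe above background on every array: IFNL3 was on 14, IFNE on 12 and IFNA7 on 6. IFNA7 read -7.45, -7.66 and -7.59 in K264R, and IFNE read -6.45, -7.51 and -6.61 in vector. These calls may therefore set signal against background, and the size of the changes is uncertain. Of 14 nucleic acid sensing genes 3 were called (21.4%). TBK1, the kinase that activates interferon regulatory factors, was higher at 0.78, and the nucleotide hydrolase SAMHD1 and the sensor ZBP1 were lower at 1 of their 2 probes each, by -0.75 and -0.66, while the other probes read 0.27 and 0.02 and were not called.

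The summed levels of probes for cell type markers also differed between the tumors. The summed linear level of the stromal fibroblast probes ran from 4.66 to 19.4 in K264R, 5.71 to 44.1 in wild type MOAP-1, 10.9 to 41.6 in K278R, 2.04 to 7.76 in vector and 8.06 to 11.4 in the tumors labelled RASSF1A, in units of the array's 75th percentile. In K264R against vector 0 of 7 such genes were called. An unadjusted limma p under 0.05 was found at 1 of them, and at 45% of all probes. The colon epithelium sum was 212 to 238 in K264R and 278.2 to 317 in vector, with no overlap, and 1 of 8 genes, KRT8, was called, higher at its dimmer probe. The leukocyte sum was 22.8 to 25.6 in K264R and 31.7 to 34.6 in vector, with 1 of 9 genes, CD79A, called and lower. Beside these counts, 23.6% of all named genes were called. The sums are linear, so the brightest probe of a list weighs most. On the log2 scale CD79A read 3.40 to 3.53 in K264R and 4.09 to 4.41 in vector, and KRT19 6.84 to 7.09 and 7.38 to 7.63. By mean, 2 of 12 leukocyte probes and 4 of 11 colon epithelium probes read higher in K264R. LILRA4, a marker of plasmacytoid dendritic cells, which make type I interferon, was 2.13 lower in K264R (SE 0.30, adjusted p = 0.000253). LILRA4 was also called lower in wild type MOAP-1 and K278R, at -1.43 and -1.24 against vector. Of the other listed markers of that cell type, CLEC4C changed by -0.27 in K264R and was not called. IL3RA was too dim to be tested. The host is a mouse and human probes may read mouse RNA in part. Whether these probes read RNA of other cells in these tumors was not tested. The part of such cells in the interferon-stimulated gene values was not tested either.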

How the data were processed

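RNA of 15 HCT116 xenografts was labelled with Cy3 and hybridised to Agilent one-color arrays. The authors deposited 1 scanner file per array with spot intensities, read with Agilent Feature Extraction (9.1 in the submitters' processing notes, 10.5.1.1 in the file headers), and a table of log2 values. The table's columns matched the scanner values as log2 minus the array's 75th percentile with each probe centred, and 7 of 15 columns followed another array of the same construct, so per the labels the scanner files were used. No columns of other samples were found.

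Control and outlier spots were left out, spots of a probe averaged, and log2 of the processed intensity was centred on each array's percentile 75. Of 34127 probes, 25422 (74.5%) matched a RefSeq gene. Probes well above background on all arrays of at least 1 construct were kept (30585). Construct was fitted to all 15 arrays with limma 3.58.1 (R 4.3.3), with Benjamini-Hochberg adjustment and a threshold of 0.05 and 1.5-fold. Precision is set by having 3 tumors per construct. The model was tested on simulated data.

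The members, the lists and the comparisons were chosen with earlier results of these data known. Every listed gene could be named, with values in every tumor at the brightest called probe, and genes of other lists where a probe was called in a comparison that involved K264R. Alternatives were background correction, normalization, filter, weights, blocks (slide, scan day, replicate), the methods' t test, and leaving out each tumor.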

Additional observations from a re-analysis of the deposited data

Results flagged for a closer look

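K264R and the tumors labelled RASSF1A differed in their change against the shared vector tumors at 13 of 43 interferon-stimulated genes (30.2%). The test was limma's direct comparison of K264R against RASSF1A. The share was near that of all named genes, of which 28.3% were called. At IFIT3 the change against vector was 1.35 in K264R and -0.84 in the tumors labelled RASSF1A, and at BST2 0.80 and -0.65.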

How the results depend on the processing

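Of the 41 calls at single probes, followed through the alternatives, 744 values kept direction and call, 145 kept direction and lost the call and 4 changed sign. With normexp background correction, which moved the median of all probes in K264R against vector from -0.05 to -0.31, the count of interferon-stimulated genes called was 2 in K264R, 0 in wild type MOAP-1 and 0 in K278R against vector, and 8 in K264R against RASSF1A. The sign changes were all under it: SAMD9L in K264R (-0.49, and -0.25 once 17 spots of extreme local background were left out) and in wild type MOAP-1 (-1.09), and IRF1 in K278R (-0.31). HERC6 fell from 2.82 to 0.71 and, without those spots, to 1.41, where K264R against vector called 12 genes and K264R against K278R 4. Adjusted p alone called 23, 11 and 20 genes in K264R and wild type MOAP-1 against vector and in K264R against RASSF1A, and the methods' t test with adjustment called 7, 3 and 8, and 0 in K278R against vector. Array weights called 7 genes in K264R against wild type MOAP-1 and 10 in K264R against K278R. For K264R against K278R, slide as a random block called 3 and the methods' t test on unadjusted p 3. K278R against vector called 1 gene when only those groups were fitted. Counting a gene only where every probe was called the same way, chosen after seeing the data, gave 3 in wild type MOAP-1 and 3 in K278R. Leaving out 1 tumor gave 9 (without vector tumor 2) to 19 genes in K264R against vector, 3 (without vector tumor 2) to 12 (without vector tumor 3) in wild type MOAP-1, 2 (without vector tumor 1 or 2) to 8 (without vector tumor 3) in K278R, 0 to 3 (without RASSF1A tumor 3) in RASSF1A, 0 in K264R against wild type MOAP-1, 0 to 3 (without K278R tumor 3) against K278R and 12 to 17 against RASSF1A. The replicate numbers did not pair the tumors, with correlations of matched deviations from -0.30 to 0.41, and the replicate block gave 15, 7, 5, 0, 0, 0 and 14 genes in the 7 comparisons. The causes were not tested. By the flags in the scanner files, 52 of the 53 probes were well above background on all 15 arrays. The XAF1 probe A_24_P557479 had no value in K264R tumor 3, where it was left out as an outlier. These flags do not cover the shifts with normexp correction given above.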

Other observations

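Interferon targets outside the list moved both ways in K264R against vector. Of 44 such genes 16 were called (36.4%, where 23.6% of all named genes were), 9 higher and 7 lower. ZC3HAV1, the zinc finger antiviral protein, was 1.47 higher at its dimmer probe (SE 0.19, limma adjusted p = 0.000157), with -0.21, -0.23 and -0.08 in K264R and -1.66, -1.97 and -1.31 in vector, but 0.05 higher (SE 0.11) at its brighter probe. APOL1, a secreted lipoprotein component, was the furthest below, at -1.78 (SE 0.22, adjusted p = 0.000132), with 1.18, 1.44 and 1.25 in K264R and 3.20, 3.59 and 2.43 in vector, and no overlap. The guanylate-binding proteins GBP2 and GBP4, which attack intracellular pathogens, were lower by -0.72 and -0.96 (adjusted p = 0.00303 and 0.000524). PNPT1 was 0.84 higher at 1 of its 2 probes and 0.29 higher, not called, at the other. TRIM14 was lower at 2 of its 4 probes (-0.94 and -0.85), and the others read 0.29 and -0.01 and were not called.

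Of 14 antigen presentation genes 3 were called higher in K264R against vector. PSMB9, an immunoproteasome subunit, was 1.02 higher, NLRC5, the transactivator of class I genes, 0.95 higher at its dimmer probe, and TAPBP, which loads peptide on class I molecules, 0.70 higher at 1 of its 3 probes. The brighter NLRC5 probe read -0.44 and the other TAPBP probes -0.25 and -0.06, and none of them was called.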
